A study of Homo sapiens with 24 samples.

Results

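CISH, SOCS1, PIM1 and BCL6 are 4 genes known as transcriptional targets of JAK-STAT signalling, and the direction of that regulation was not tested. They were taken by gene symbol from a deposited table of 9822 genes, and all 4 were measured and passed the filter on low counts. The cells were MOLT4, a line grown from human acute lymphoblastic leukaemia of the T lineage, and the study followed their transcripts after exposure to SK-3-91, named a pan-kinase degrader in the series text. A degrader joins a ligand of its target protein to a recruiter of a ubiquitin ligase, so that the target is tagged for destruction. RNA was taken at 1, 4 and 8 h from cells given SK-3-91 or the solvent DMSO, with 4 libraries in each of the 6 groups and 24 in all. No group carried a genetic change beyond those of the line itself. The labels name no dose.

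Cytokine receptors without kinase activity of their own signal through JAK kinases, which phosphorylate STAT transcription factors. Phosphorylated STAT dimers enter the nucleus and bind short palindromic sites near their target genes. Some of those targets feed back on the pathway. CISH and SOCS1 encode SH2-domain proteins that block receptors or JAKs and act with a ubiquitin ligase, PIM1 encodes a constitutively active serine/threonine kinase that promotes survival, and BCL6 encodes a zinc-finger transcriptional repressor. In developing and leukaemic T cells the pathway carries signals such as that of interleukin-7.

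The letters around the transcription starts are shown first because STAT and interferon regulatory factors (IRF) recognise short sequences. All 4 genes matched the RefSeq promoter table (GRCh38.p14), which gives 300 bases per start, from 250 before it to 50 after it. BCL6 had 2 such windows and each of the other genes had 1. Windows were searched on both strands for TTCNNNGAA, the STAT-type palindrome, and for GAAANNGAAA, an IRF-type element. CISH and BCL6 are printed because each held 4 STAT-type matches, and SOCS1 because it held the only IRF-type match among the genes. Capitals mark the matches, and no match overlapped another.
CISH, chr3:50611725-50612024, minus strand: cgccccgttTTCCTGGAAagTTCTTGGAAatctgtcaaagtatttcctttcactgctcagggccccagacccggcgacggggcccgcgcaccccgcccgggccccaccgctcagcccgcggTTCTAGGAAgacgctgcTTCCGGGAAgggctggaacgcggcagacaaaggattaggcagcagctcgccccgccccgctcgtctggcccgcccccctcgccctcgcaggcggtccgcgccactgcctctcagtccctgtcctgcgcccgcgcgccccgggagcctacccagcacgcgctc
BCL6, chr3:187745419-187745718, minus strand: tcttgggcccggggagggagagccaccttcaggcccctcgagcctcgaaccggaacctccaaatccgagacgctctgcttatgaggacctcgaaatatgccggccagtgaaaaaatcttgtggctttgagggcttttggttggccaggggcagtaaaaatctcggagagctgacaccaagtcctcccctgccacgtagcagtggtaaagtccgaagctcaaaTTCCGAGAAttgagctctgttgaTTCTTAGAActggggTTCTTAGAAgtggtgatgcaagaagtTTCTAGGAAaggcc
SOCS1, chr16:11256155-11256454, minus strand: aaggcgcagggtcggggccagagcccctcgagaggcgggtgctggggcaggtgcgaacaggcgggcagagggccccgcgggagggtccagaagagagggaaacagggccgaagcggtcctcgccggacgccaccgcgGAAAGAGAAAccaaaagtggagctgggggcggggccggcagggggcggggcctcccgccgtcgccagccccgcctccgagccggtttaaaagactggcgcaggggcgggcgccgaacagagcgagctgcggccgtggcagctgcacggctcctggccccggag

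In the CISH window the matches TTCCTGGAA, TTCTTGGAA, TTCTAGGAA and TTCCGGGAA began at positions -241, -230, -129 and -112 from the start. In the first BCL6 window TTCCGAGAA began at -28, TTCTTAGAA at -5 and again at 11, and TTCTAGGAA at 37. The SOCS1 match GAAAGAGAAA began at -113. The PIM1 window (chr6:37169902-37170201, plus strand) and the second BCL6 window (chr3:187736452-187736751, minus strand) held neither motif, which says only that these letters are not in these windows.

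Among all 35116 windows of the promoter table, 7.66% held at least 1 STAT-type match, 0.456% at least 2, and 7 windows (0.0199%) at least 4. The IRF-type element was in 3.57%. The windows of the genes were rich in G and C at 70.3% for CISH, 74.0% for SOCS1 and 79.7% for PIM1, while the BCL6 windows had 53.0% and 50.3%, against a median of 58.7% over all windows. These matches describe the sequence, and binding was not measured here.

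**Figure D1:**
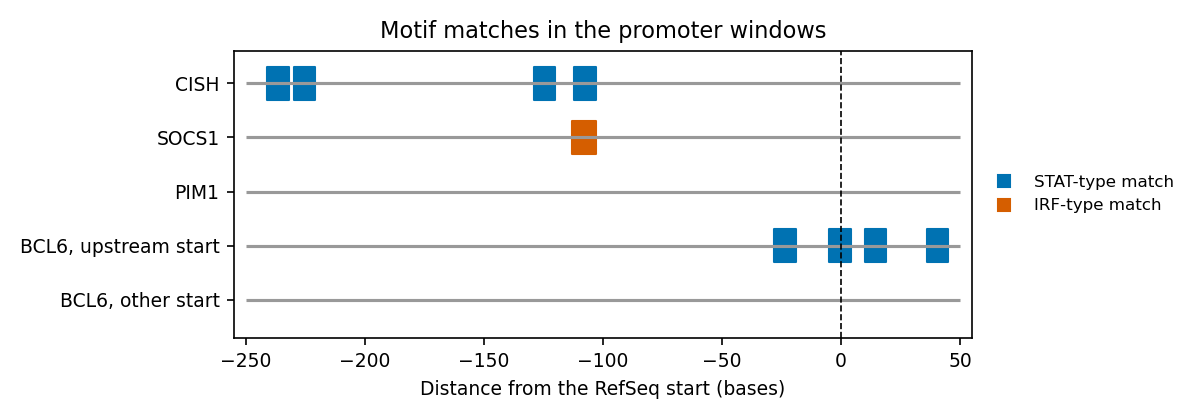
Position of the motif matches in each promoter window, as distance in bases from the RefSeq start (dashed line at 0). Blue boxes are STAT-type and orange boxes IRF-type matches. The 4 CISH matches lie in 2 pairs upstream of the start, and the 4 matches of the first BCL6 window lie around it.

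Counted reads ranged from 13.57 to 14.63 megareads in the DMSO libraries. They were 13.57 to 13.65 megareads in SK-3-91 libraries at 1 h, 10.64 to 10.87 megareads at 4 h and 6.86 to 8.96 megareads at 8 h. Reads counted over the 9822 genes thus fell with the treatment, and total reads sequenced were not assessed. The part of this fall in the results was not tested. The SK-3-91 libraries at 8 h also differed most among themselves, with replicate 3 at a root mean square distance of 0.259 (log2) from the others of its group against 0.109 to 0.142 among DMSO libraries. Of 20 T-lineage markers 18 were measured, with summed levels of 3930 to 4670 CPM (counts scaled to library size) in DMSO and 4290 to 5540 CPM in SK-3-91. TAL1 and LAT were not in the table, and of 25 markers of other cell types 2 were, CD79A at 6.35 to 30.5 CPM and PECAM1 at 15.7 to 43.7 CPM. CD79A was highest in SK-3-91 at 8 h and PECAM1 lowest there. In such bulk RNA, fewer cells of a kind and less RNA per cell cannot be told apart. The labels do not say whether the replicates came from separate cultures, and the p-values cover just the spread among these libraries, possibly a technical one.

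Levels below, and the marker levels above, are CPM after TMM scaling. That scaling sets each library so that the trimmed mean log ratio of its genes to a reference library is near 0. A change is thus relative to other genes and not per cell. CISH, PIM1 and BCL6 were lower in SK-3-91 than in DMSO at 1, 4 and 8 h, and SOCS1 at 1 and 4 h (edgeR quasi-likelihood test, Benjamini-Hochberg adjusted p under 0.05). A gene so called lower was common in this experiment: 29.4% of all genes at 1 h, 45.9% at 4 h and 48.1% at 8 h were. Of the 4 genes, 4 were called lower at 1 h, 4 at 4 h and 3 at 8 h, counts to be read against those shares. Against a minimum fold of 2 the share called lower was only 1.6% at 1 h, 15.2% at 4 h and 20.4% at 8 h. CISH, PIM1 and BCL6 passed that stricter test at every time and SOCS1 at none. BCL6 passed only narrowly at 4 h (edgeR test against a minimum fold of 2, adjusted p = 0.0449).

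**Figure D2:**
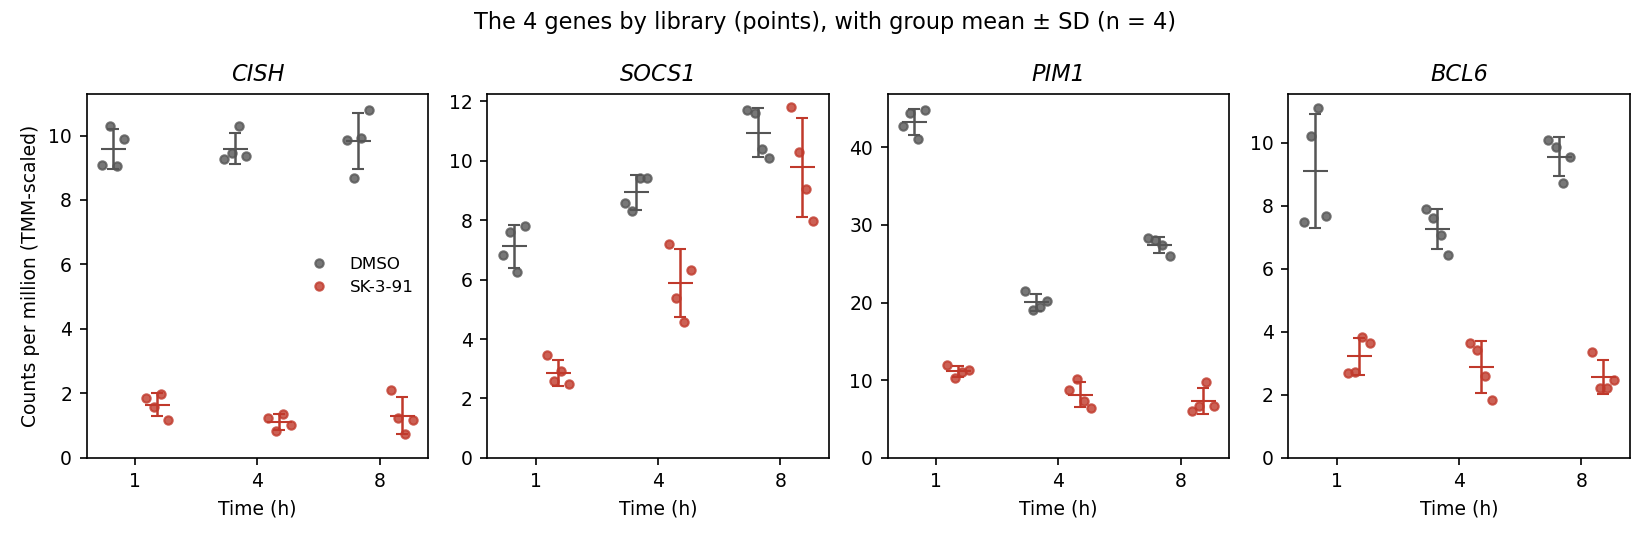
TMM-scaled CPM of each gene in every library (points) against time in h, in DMSO (grey) and SK-3-91 (red), with the mean and SD of each group (n = 4). The treated libraries of CISH, PIM1 and BCL6 lie below all DMSO libraries of their time, while those of SOCS1 rise until they overlap DMSO at 8 h.

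CISH, cytokine-inducible SH2-containing protein, binds activated receptors and competes with STAT5 for its docking sites. At 1 h the 4 DMSO libraries had 9.08, 10.3, 9.05 and 9.88 CPM, and the 4 SK-3-91 libraries 1.87, 1.57, 1.98 and 1.17 CPM. At 4 h they had 9.26, 9.45, 10.3 and 9.37 against 1.25, 0.83, 1.36 and 1.02 CPM. At 8 h they had 9.87, 8.69, 9.93 and 10.8 against 2.11, 1.24, 0.738 and 1.16 CPM. Every treated library was far below every DMSO library of its time. Such separation, with all 4 treated libraries under all 4 DMSO libraries, held for 28.2% of all genes at 1 h, 43.7% at 4 h and 45.1% at 8 h.

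CISH fell by 2.54 ± 0.14 (log2, SE, n = 4 per group) at 1 h, to 17.2% of its DMSO level (edgeR adjusted p = 9.67e-19). Of the 9822 genes only 1 had a lower fold change at that time. At 4 h CISH fell by 3.10 ± 0.17, to 11.7% (adjusted p = 9.7e-20), and at 8 h it fell by 2.86 ± 0.19, to 13.8% (adjusted p = 1.37e-17). It ranked 84th and 241st from the lowest at those times. These treated levels rest on few reads, 17 to 29 per library at 1 h, 8 to 13 at 4 h and 4 to 15 at 8 h. The SEs given for CISH were derived from the F statistics of edgeR and may overstate its precision. DESeq2 gave larger SEs for the same 3 differences, 0.175 at 1 h, 0.24 at 4 h and 0.26 at 8 h.

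No change of CISH with time was called in DMSO. It averaged 9.59 ± 0.631, 9.60 ± 0.485 and 9.83 ± 0.876 CPM (SD, n = 4), and the time-to-time differences of 0.00 ± 0.10 and 0.03 ± 0.10 (log2) had adjusted p = 0.991 and 0.822. Of all genes, 35.1% changed in DMSO between 1 and 4 h and 30.7% between 4 and 8 h. In order of level, the 3 DMSO groups of CISH overlapped, and so did the treated groups at 1 h (1.65 ± 0.362 CPM), 8 h (1.31 ± 0.575 CPM) and 4 h (1.12 ± 0.236 CPM). Within SK-3-91 the CISH difference of -0.56 ± 0.25 from 1 to 4 h was called (adjusted p = 0.0396), and that of 0.27 ± 0.32 from 4 to 8 h was not (adjusted p = 0.449). The first call was lost with DESeq2 (-0.54, adjusted p = 0.0585), with limma-trend on the deposited values (-0.07, adjusted p = 0.0831), and without SK-3-91 replicate 1 or 3 at 1 h (-0.49 and -0.46) or replicate 2 or 4 at 4 h (-0.44 and -0.52).

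SOCS1, suppressor of cytokine signalling 1, binds and inhibits JAK kinases directly. At 1 h the DMSO libraries had 6.83, 7.61, 6.25 and 7.80 CPM and the SK-3-91 libraries 3.46, 2.59, 2.93 and 2.48 CPM. At 4 h they had 8.57, 8.31, 9.44 and 9.44 against 7.21, 5.39, 4.59 and 6.34 CPM. At 8 h they had 11.7, 11.6, 10.4 and 10.1 against 11.8, 10.3, 9.04 and 7.97 CPM. The groups were apart at 1 and 4 h and overlapped at 8 h, when the highest library of all was a treated one. Both arms of the experiment climbed, the treated arm faster.

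SOCS1 fell by 1.31 ± 0.14 (log2) at 1 h, to 40.3% of DMSO (edgeR adjusted p = 1.43e-10), and fell by 0.60 ± 0.13 at 4 h, to 65.8% (adjusted p = 3.28e-05). At 8 h the difference was -0.15 ± 0.12, 89.9% of DMSO, and did not pass the test (adjusted p = 0.222). That value depends on scaling: it was -0.32 (adjusted p = 0.0116) with upper-quartile factors and -0.58 (adjusted p = 1.86e-05) with none, and limma-trend on the deposited log2 values, which also lack such factors, gave -0.25 (adjusted p = 5.75e-06).

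The response of SOCS1 itself changed with time, by 0.71 ± 0.19 (log2) from 1 to 4 h (edgeR adjusted p = 0.00102), 0.45 ± 0.18 from 4 to 8 h (adjusted p = 0.0226) and 1.16 ± 0.19 from 1 to 8 h (adjusted p = 4.48e-07). A change in response was called for 80.4%, 68.6% and 85.4% of all genes over those intervals. The call from 4 to 8 h was lost without SK-3-91 replicate 2 at 4 h (0.41, adjusted p = 0.0501), replicate 3 at 4 h (0.35, adjusted p = 0.0796) or replicate 1 at 8 h (0.34, adjusted p = 0.0957). It was also lost with upper-quartile factors (0.34) and with none (0.32).

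Within SK-3-91 the SOCS1 level rose by 1.04 ± 0.16 (log2) from 1 to 4 h (edgeR adjusted p = 1.6e-07) and by 0.74 ± 0.14 from 4 to 8 h (adjusted p = 1.69e-05). Changes within the treated libraries were called for 83.8% and 73.4% of all genes. In DMSO it rose by 0.33 ± 0.11 (adjusted p = 0.0162) and 0.29 ± 0.10 (adjusted p = 0.0244). The first of these DMSO calls was lost without replicate 3 at 1 h (0.27) or replicate 3 at 4 h (0.30), and the second without replicate 1 or 2 at 4 h (0.27 and 0.26) or replicate 1 or 2 at 8 h (0.26 each). From highest to lowest, SOCS1 averaged 10.9 ± 0.798 CPM in DMSO at 8 h, 9.79 ± 1.66 in SK-3-91 at 8 h, 8.94 ± 0.585 in DMSO at 4 h, 7.12 ± 0.718 in DMSO at 1 h, 5.88 ± 1.14 in SK-3-91 at 4 h and 2.86 ± 0.441 in SK-3-91 at 1 h (SD, n = 4). Ranges of neighbours in that order overlapped except for DMSO at 4 and 1 h and the last 2 groups.

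PIM1 is active without phosphorylation by an upstream kinase and is controlled mainly through its amount. At 1 h the DMSO libraries had 42.8, 44.4, 41.1 and 44.8 CPM and the SK-3-91 libraries 12, 10.3, 11.1 and 11.3 CPM. At 4 h they had 21.5, 19.0, 19.4 and 20.2 against 8.78, 10.1, 7.30 and 6.44 CPM. At 8 h they had 28.3, 28.0, 27.4 and 26 against 6.04, 6.62, 9.78 and 6.67 CPM. All treated libraries were below all DMSO libraries of their time. The DMSO groups were apart from each other too, and how many of all genes separated so was not counted. Changes within DMSO were called for 35.1% of all genes from 1 to 4 h and 30.7% from 4 to 8 h.

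PIM1 fell by 1.95 ± 0.08 (log2) at 1 h, to 25.8% of DMSO (edgeR adjusted p = 2.27e-23), fell by 1.30 ± 0.10 at 4 h, to 40.6% (adjusted p = 1.63e-15), and fell by 1.94 ± 0.11 at 8 h, to 26% (adjusted p = 5.75e-20). Its response thus changed by 0.65 ± 0.13 from 1 to 4 h (adjusted p = 2.6e-05) and by -0.64 ± 0.16 from 4 to 8 h (adjusted p = 4.73e-04), with 0.01 ± 0.15 (adjusted p = 0.951) between 1 and 8 h. The last value was -0.40 (adjusted p = 0.0097) with no scaling factors. PIM1 ranked 17th from the lowest of 9822 genes at 1 h, 1240th at 4 h and 828th at 8 h.

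The smaller response at 4 h went with a lower control. In DMSO PIM1 fell by 1.11 ± 0.07 (log2) from 1 to 4 h (edgeR adjusted p = 3.28e-16) and rose by 0.45 ± 0.07 from 4 to 8 h (adjusted p = 6.87e-06). In SK-3-91 it fell by 0.46 ± 0.11 from 1 to 4 h (adjusted p = 2.4e-04), and the difference of -0.19 ± 0.14 from 4 to 8 h did not pass (adjusted p = 0.226). Without SK-3-91 replicate 3 at 8 h, the library at 9.78 CPM, that last difference was -0.34 and passed (adjusted p = 0.0369). PIM1 averaged 43.3 ± 1.70, 27.4 ± 1.05 and 20.0 ± 1.11 CPM in DMSO at 1, 8 and 4 h and 11.2 ± 0.662, 8.14 ± 1.60 and 7.28 ± 1.69 CPM in SK-3-91 at 1, 4 and 8 h (SD, n = 4). Only the last 2 of these 6 groups overlapped as neighbours.

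BCL6 silences genes by recruiting corepressors and guides lymphocyte differentiation. At 1 h the DMSO libraries had 7.47, 10.2, 11.1 and 7.67 CPM and the SK-3-91 libraries 2.70, 2.72, 3.82 and 3.64 CPM. At 4 h they had 7.89, 7.62, 7.07 and 6.44 against 3.66, 3.42, 2.61 and 1.84 CPM. At 8 h they had 10.1, 9.88, 8.71 and 9.54 against 3.37, 2.21, 2.21 and 2.46 CPM. The treated libraries lay below the DMSO libraries at each time. The DMSO libraries at 1 h had the largest SD in CPM, and the SK-3-91 libraries at 4 h the largest relative to their mean (28.7% against 20.1%).

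BCL6 fell by 1.5 ± 0.14 (log2) at 1 h, to 35.4% of DMSO (edgeR adjusted p = 1.31e-11), fell by 1.33 ± 0.17 at 4 h, to 39.7% (adjusted p = 3.75e-09), and fell by 1.88 ± 0.19 at 8 h, to 27.1% (adjusted p = 5.82e-12). The changes in its response were 0.17 ± 0.24 from 1 to 4 h (adjusted p = 0.524) and -0.55 ± 0.28 from 4 to 8 h (adjusted p = 0.0803). The second passed without SK-3-91 replicate 4 at 4 h (-0.72, adjusted p = 0.0234) or replicate 1 at 8 h (-0.72, adjusted p = 0.04). For CISH the change from 1 to 4 h, -0.56 ± 0.27 (adjusted p = 0.0559), passed without DMSO replicate 2 at 1 h (-0.60, adjusted p = 0.0452), SK-3-91 replicate 4 at 1 h (-0.69, adjusted p = 0.0204) or SK-3-91 replicate 3 at 4 h (-0.67, adjusted p = 0.0414).

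BCL6 averaged 9.55 ± 0.603, 9.12 ± 1.83 and 7.25 ± 0.641 CPM in DMSO at 8, 1 and 4 h, and 3.22 ± 0.595, 2.88 ± 0.827 and 2.56 ± 0.552 CPM in SK-3-91 at 1, 4 and 8 h (SD, n = 4). In that order all neighbours overlapped except DMSO at 4 h and SK-3-91 at 1 h. In DMSO it rose by 0.40 ± 0.12 (log2) from 4 to 8 h (edgeR adjusted p = 0.0106). The DMSO difference of -0.33 ± 0.12 from 1 to 4 h (adjusted p = 0.0304) was no longer called without replicate 2 or 3 at 1 h (-0.27 and -0.22) or replicate 3 or 4 at 4 h (-0.32 and -0.28), nor with DESeq2 (-0.32, adjusted p = 0.0536). Within SK-3-91 the BCL6 differences of -0.16 ± 0.20 and -0.15 ± 0.26 between successive times were not called (adjusted p = 0.458 and 0.598). Exons on the opposite strand, of AC072022.1 and AC072022.2, cover 12.1% of the exon bases of BCL6, and the strand setting of the counting is not given in the sources used here.

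**Figure D3:**
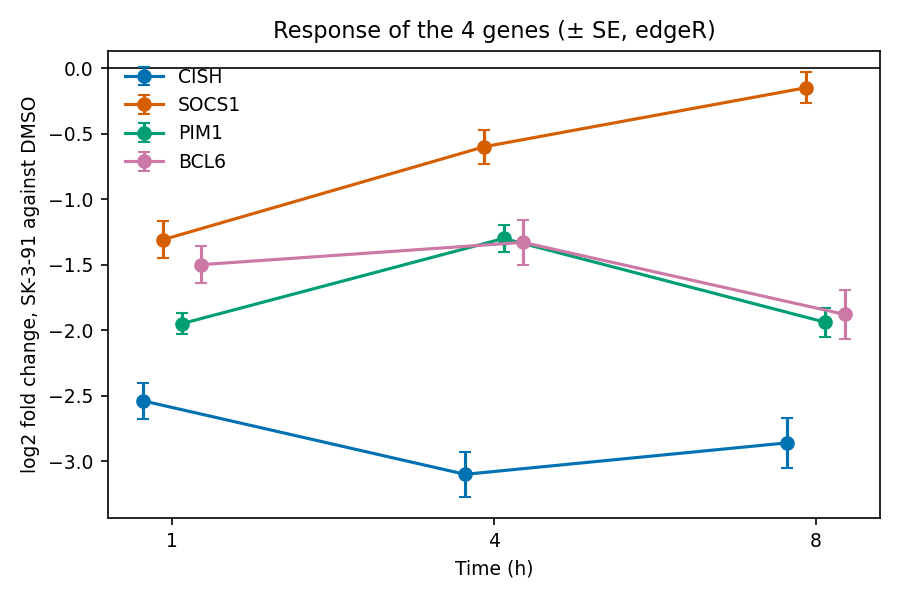
Log2 fold change of SK-3-91 against DMSO (vertical axis, ± SE from edgeR, 4 libraries per group) at 1, 4 and 8 h for the 4 genes. CISH stays lowest, between -2.54 and -3.10, and SOCS1 moves from -1.31 to -0.15.

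Per kilobase of the width deposited with the counts, the DMSO levels at 1 h were 13.6 ± 0.533 CPM for PIM1, 5.67 ± 0.571 for SOCS1, 4.08 ± 0.269 for CISH and 2.17 ± 0.436 for BCL6 (SD, n = 4). In DMSO at 4 and 8 h SOCS1, at 7.12 ± 0.465 and 8.71 ± 0.635, was level with PIM1, at 6.29 ± 0.349 and 8.61 ± 0.330, or above it. At 8 h in SK-3-91 SOCS1 had 7.79 ± 1.32 CPM per kilobase, PIM1 2.28 ± 0.530, BCL6 0.611 ± 0.132 and CISH 0.559 ± 0.245. The ranges of BCL6 and CISH overlapped there.

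Ratios of 2 counts within a library need no scaling. SOCS1 reads per CISH read had medians of 0.744, 0.92 and 1.11 in DMSO at 1, 4 and 8 h and 1.75, 5.97 and 7.60 in SK-3-91. The treated ranges of 1.48 to 2.12, 3.38 to 6.5 and 5.60 to 12.2 lay above all DMSO ratios, the highest of which was 1.33. PIM1 reads per SOCS1 read went the other way, from DMSO medians of 6.05, 2.21 and 2.50 to 3.90, 1.40 and 0.738. PIM1 reads per BCL6 read overlapped between treatments at each time, with medians of 5.04, 2.74 and 2.82 in DMSO and 3.45, 2.87 and 2.85 in SK-3-91. By root mean square difference in log2 CPM centred on the DMSO mean, PIM1 and BCL6 were the closest pair over the 24 libraries (0.393). The difference was 0.884 for CISH and PIM1, 0.918 for CISH and BCL6 and 0.912 to 1.613 for SOCS1 with the others. By Pearson correlation CISH and BCL6 were closer, at 0.943 against 0.917 for PIM1 and BCL6.

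**Figure D4:**
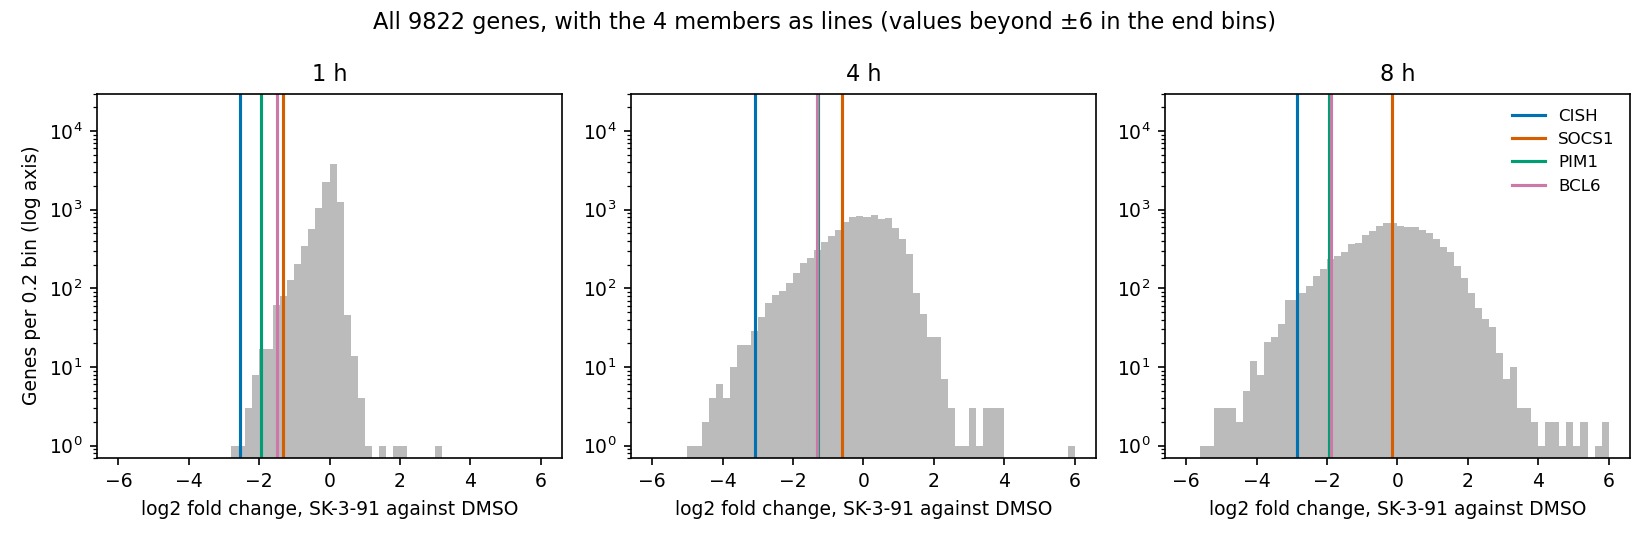
Number of genes (log axis, bins of 0.2) by log2 fold change of SK-3-91 against DMSO at 1, 4 and 8 h for all 9822 genes, with coloured lines at the 4 genes. At 1 h all 4 lines stand in the thin lower tail, and at 8 h SOCS1 stands in the middle; the PIM1 and BCL6 lines nearly coincide at 4 and 8 h.

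Upstream in the pathway stand the JAK kinases and STAT factors. Of 4 JAK genes, 1 was higher at 1 h and 3 were higher and 1 lower at 4 and 8 h, while 24.9%, 42.0% and 41.3% of all genes were called higher at 1, 4 and 8 h. TYK2 rose by 0.25, 0.91 and 1.14 (log2) at the 3 times, and JAK1 by 0.63 at 4 h and 1.10 at 8 h. JAK3, the partner of the common gamma chain, rose by 0.37 at 4 h and 0.31 at 8 h, values that became 0.07 and -0.12 with no scaling factors. JAK2 fell (-0.42 and -0.36). With no scaling factors 2 JAK genes were higher and 1 lower at 4 h, and 2 were higher and 2 lower at 8 h.

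Of 7 STAT genes, 3 were higher and 1 lower at 1 h, 5 and 2 at 4 h, and 4 and 2 at 8 h. Over all genes the called shares were 24.9%, 42.0% and 41.3% higher and 29.4%, 45.9% and 48.1% lower. Median log2 fold changes of the STAT genes were 0.11, 0.39 and 0.36 beside 0.01, -0.05 and -0.11 over all genes. With no scaling factors 2 STAT genes were higher and 3 lower at 8 h and their median was -0.07. STAT5A fell at 1 h (-0.19) and 4 h (-0.15), and at 8 h it was at -0.05 (adjusted p = 0.14). STAT5B rose by 0.16, 0.75 and 0.74 and STAT3 by 0.14, 0.58 and 0.70. STAT6 rose at each time (0.18, 0.57 and 0.36), though its 8 h value turned to -0.07 with no scaling factors. STAT2 rose at 4 and 8 h (0.39 and 0.57, and 0.09 and 0.14 with no scaling factors, not called), and STAT4 fell then (-0.37 and -0.31, the latter -0.22 and not called with RLE factors). STAT5A and STAT5B share 11.6% and 13.2% of their 32-base words with other genes, so their split is less certain.

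Of 33 cytokine receptor genes 10 were measured. At 1 h 1 was higher (IL2RG, the common gamma chain) and 4 lower, and at both 4 and 8 h 4 were higher and 5 lower, with medians of -0.04, -0.18 and -0.12. The shares of all genes were 24.9%, 42.0% and 41.3% higher and 29.4%, 45.9% and 48.1% lower, so the later counts were near the background. Unscaled, 3 were higher and 6 lower at 4 h (median -0.48), and the median at 8 h was -0.55. IFNAR1, a chain of the type I interferon receptor, fell at each time (-0.36, -2.25 and -2.44). IL15RA, the interleukin-15 receptor alpha chain, fell as well (-0.44, -1.12 and -2.29), and IL11RA rose by 1.12 at 4 h and 2.02 at 8 h (15.4% of its words shared).

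Among the SOCS family and its ubiquitin ligase partners 9 genes were measured beside CISH and SOCS1. Of those, 2 were higher and 3 lower at 1 h, 5 and 2 at 4 h, and 8 and 1 at 8 h, beside all-gene shares of 24.9%, 42.0% and 41.3% higher and 29.4%, 45.9% and 48.1% lower. Their median was -0.12, 0.22 and 0.98. With no scaling factors 4 were higher and 4 lower at 4 h (median -0.08), and 6 were higher and 1 lower at 8 h (median 0.55). SOCS6 and SOCS5, which act mainly on receptor tyrosine kinases, rose by 1.78 each at 4 h and by 2.69 and 2.47 at 8 h, from 16.2 to 105 CPM and from 18.9 to 105 CPM at 8 h. SOCS5 had fallen by 0.43 at 1 h. SOCS2, a STAT5 target that restrains growth hormone signalling, fell at 4 h (-0.90) and 8 h (-1.39). SOCS4 fell at 1 and 4 h (-1.11 and -0.72) and then rose by 0.55 (0.12 with no scaling factors, not called), and SOCS7 fell by 0.17 at 1 h and rose by 0.97 at 8 h.

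The ligase partners join the SOCS box, directly or through each other. ELOB, elongin B, rose by 0.27, 1.39 and 1.93 and ELOC, elongin C, by 0.17, 0.93 and 1.34. Both share sequence with other genes (18.0% and 15.1% of words). CUL5, the cullin scaffold, rose by 0.22 at 4 h (-0.08 with no scaling factors) and 0.98 at 8 h, and RNF7, its RING partner, by 0.37 at 8 h (-0.06 with none). Thus CISH was the lowest of the 11 measured genes of this list at each time.

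**Figure D5:**
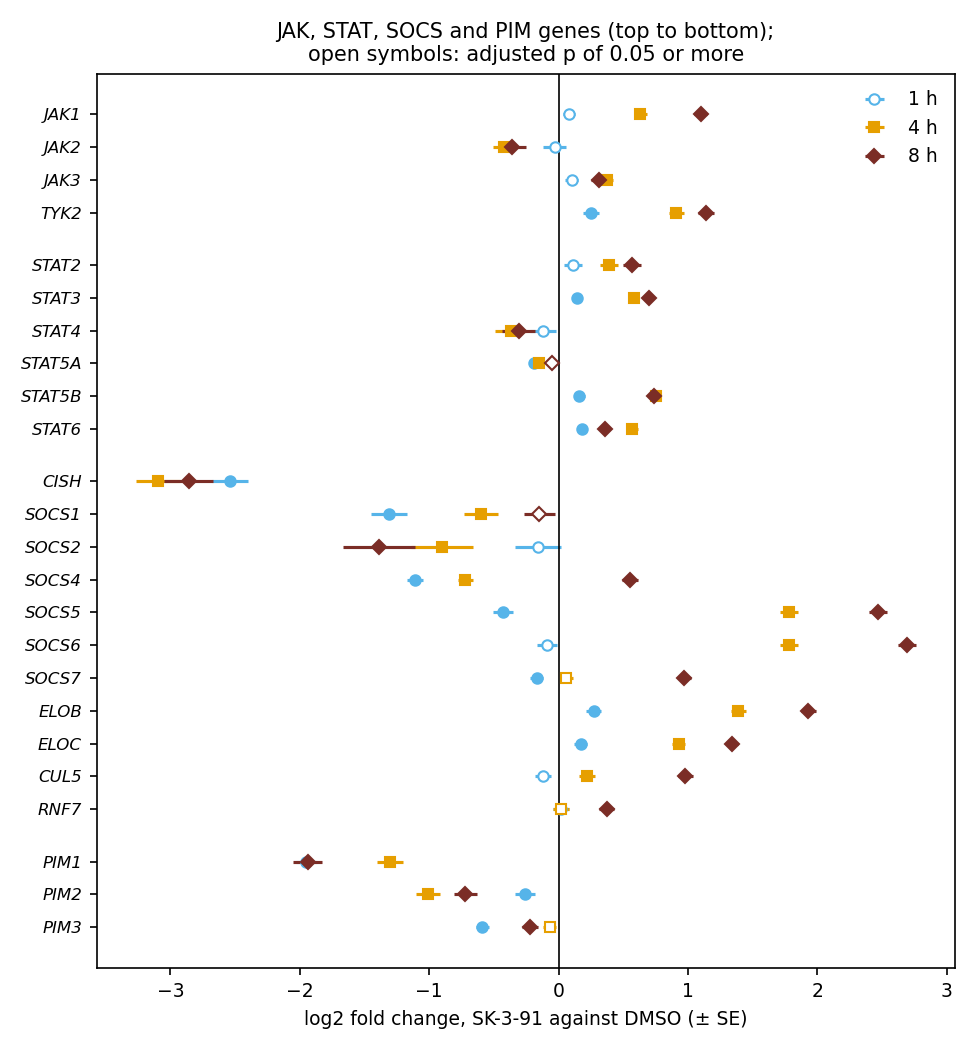
Log2 fold change of SK-3-91 against DMSO (horizontal axis, ± SE) for the JAK, STAT, SOCS and ligase, and PIM genes described here at 1 h (circles), 4 h (squares) and 8 h (diamonds), with open symbols where the adjusted p was 0.05 or more. CISH and PIM1 stand on the left at all times, while SOCS5 and SOCS6 reach 2.47 and 2.69 on the right.

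Other inhibitors of the pathway, phosphatases, PIAS proteins and adaptors, went both ways. Of 12 measured, 2 were higher and 4 lower at 1 h, 4 and 7 at 4 h, and 6 and 5 at 8 h, with medians of -0.04, -0.20 and 0.05. Of all genes 24.9%, 42.0% and 41.3% were higher and 29.4%, 45.9% and 48.1% lower. Without scaling factors 3 were higher and 8 lower at 4 h (median -0.50), and 2 and 8 at 8 h (median -0.38). PTPN6, the SHP-1 phosphatase that dephosphorylates JAKs, was at 0.12 at 1 h (adjusted p = 0.11), fell by 1.48 at 4 h and fell by 3.01 at 8 h, from 50.8 to 6.27 CPM. SH2B3, the adaptor LNK, fell by 0.80 at 1 h and rose by 0.68 and 1.11. USP18, which restrains interferon signalling, fell at 4 h (-0.50) and 8 h (-1.12), but 30.4% of its words are shared with other genes and its value is uncertain.

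The other PIM kinases had smaller fold changes than PIM1. PIM2 fell at all 3 times (-0.26, -1.01 and -0.72). PIM3 fell at 1 h (-0.59) and 8 h (-0.22) and was at -0.07 at 4 h (adjusted p = 0.217).

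Of 20 other known JAK-STAT targets 10 were measured, among them SOCS2, PIM2 and STAT3 of the lists above. At 1 h 1 was higher (STAT3) and 7 lower, at 4 h 1 (STAT3) and 9, and at 8 h 2 (STAT3 and MCL1) and 8, while 29.4%, 45.9% and 48.1% of all genes were lower. Their medians were -0.34, -0.93 and -0.73, and their counts in each direction were the same under RLE, upper-quartile and no scaling factors. MYC fell at each time, with log2 fold changes of -0.99, -0.95 and -2.33. IRF1, an interferon-induced transcription factor gene, fell too (-1.64, -1.64 and -1.13), with 28.0% of its words shared and 15.3% of its exon bases opposite exons of other genes. Several of these genes also answer to other pathways.

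Of 9 genes of BCL6 corepressors measured, 3 were higher and 2 lower at 1 h, 5 and 3 at 4 h, and 3 and 5 at 8 h, beside all-gene shares of 24.9%, 42.0% and 41.3% higher and 29.4%, 45.9% and 48.1% lower. Without scaling factors 4 were higher and 4 lower at 4 h, and with RLE factors 4 and 4 at 8 h. At 8 h TBL1XR1 and HDAC1, parts of corepressor complexes, rose by 2 and 1.59 and TBL1X fell by 1.13. Of 14 genes that BCL6 is known to repress 8 were measured. None was higher and 4 lower at 1 h, 1 higher and 4 lower at 4 h, and 1 (S1PR1) higher and 7 lower at 8 h, with medians of -0.13, -0.17 and -0.54. Of all genes, 29.4%, 45.9% and 48.1% were lower at those times. With no scaling factors none was higher and 7 were lower at both 4 and 8 h, and with RLE factors 4 were higher and 4 lower at 4 h. CD69, an early activation antigen, fell at each time (-0.56, -2.24 and -2.70), as did the survival gene BCL2 (-0.42, -1.08 and -0.96).

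The genes whose levels followed each of the 4 most closely were found by the smallest root mean square difference in centred log2 CPM over the 24 libraries, among 9184 candidates. For CISH they were ZNF526 (0.344), ZNF436 (0.439) and OTX1 (0.473). ZNF526 had log2 fold changes of -2.12, -3.22 and -2.50 at 1, 4 and 8 h. For SOCS1 they were MEX3B (0.234), TOB2 (0.252) and TICAM1 (0.295), and MEX3B, an RNA-binding protein gene, had -1.32, -0.50 and -0.20.

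For PIM1 the closest were CCNE2 (0.320), ZNF680 (0.323) and ZNF253 (0.342). CCNE2 and ZNF253 are uncertain, since 35.9% and 22.5% of their words are shared and 47.6% of the CCNE2 exon bases lie opposite other exons. For BCL6 they were ZNF680 (0.280), ZNF184 (0.282) and MAP3K14 (0.293). ZNF680, at -1.36, -1.73 and -1.81, was thus near both PIM1 and BCL6. The 24 points share 6 groups, so this likeness mostly reflects the group means.

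Of the tested genes with a promoter window, 8103 in all, 697 held at least 1 STAT-type match, and at 1 h 28.7% of these were lower and 25.5% higher, beside 29.7% and 25.3% of all 8103. Of the 38 genes with at least 2 matches, CISH and BCL6 included, 18 (47.4%) were lower and 7 (18.4%) higher at 1 h, with a median of -0.14. At 4 h 18 of the 38 (47.4%) were lower and 11 (28.9%) higher, beside 46.5% and 41.4% of all 8103. At 8 h 18 (47.4%) were lower and 16 (42.1%) higher, beside 48.3% and 40.9%. The later shares were thus near the background, except for the share higher at 4 h, which was below it. With 4 matches or more there were 4 tested genes, CISH, BCL6, ZNF225 and its antisense gene ZNF225-AS1, which the table lists as LOC100379224. ZNF225 fell by 1.33 at 1 h and fell by 3.15 at 4 h, and LOC100379224 fell by 0.48 at 1 h and was at -0.04 at 4 h (adjusted p = 0.594). Without the strand setting, reads of ZNF225 and LOC100379224 cannot be told apart where they overlap. This count was made after the fold changes of CISH and BCL6 were known and is a description.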

How the data were processed

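Total RNA of MOLT4 cells was read as 50-base single ends on a BGISEQ-500, per the labels' protocols. The authors deposited whole-number counts per Entrez gene and library. Per the submitters' processing notes, edgeR and hg19 were used, and the aligner, counter, strand setting and annotation are not given in the sources used here. Log2 values fill the second table deposited by the authors, and their antilogs were linear in the counts of their library (largest gap 3.9e-07%) and carry no gene length, so limma-trend was run on it as it stands and the planned fits on log2 of RPKM plus a pseudocount were not.

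The genes and the lists were chosen with earlier results of these data known. Counts were fitted with edgeR 4.0.16 in R 4.3.3 with TMM factors, filterByExpr (0 of 9822 genes removed), means of the 6 groups over 24 libraries, quasi-likelihood F tests and adjustment by Benjamini-Hochberg over all genes per comparison at 0.05; glmTreat gave the tests against minimum folds of 1.5 and 2. Standard errors were derived from each F statistic, and those of the responses of the 4 genes were smaller than the standard errors of DESeq2. The script was tested on simulated data. Named from the lists were all JAK, STAT, SOCS and PIM genes and, elsewhere, the 3 called genes with the largest change at 8 h and a mean of at least 2 CPM; some genes that the rule took are not reported here but stay in the counts; genes that spell out a count of 5 or fewer, and ZNF225, were added after their values were seen. Shared 32-base words and opposite exons came from GENCODE release 29 transcripts. Replicate numbers gave no pairing. Alternatives were RLE, upper-quartile and no scaling, a stricter filter, only the 8 libraries of a time, a replicate block, DESeq2 1.42.0, limma-trend (limma 3.58.1) and leaving out each library.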

Additional observations from a re-analysis of the deposited data

Results flagged for a closer look

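The response of SOCS1 to SK-3-91 differed between times by the test of the difference itself (edgeR quasi-likelihood test of the change in response), by 0.71 (log2) from 1 to 4 h, 0.45 from 4 to 8 h and 1.16 from 1 to 8 h. The response of PIM1 differed by 0.65 from 1 to 4 h and by -0.64 from 4 to 8 h. In SK-3-91 at 8 h PIM1 stood at 9.78 CPM in replicate 3, apart from the other 3 libraries at 6.04 to 6.67 CPM, with a gap of 0.83 of the range of the group, just above Dixon's limit. Of 24 gene and group pairs looked at, this was the only one so marked, and chance marks about 1 in 20 groups. That library has the fewest counted reads, with 53 of PIM1.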

How the results depend on the processing

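The 12 responses of the 4 genes kept direction and call in all 96 values from the fits without 1 library. Under the other alternatives 126 of 132 values did so. The causes of the changes were not tested. SOCS1 at 8 h passed with upper-quartile factors (-0.32), no scaling factors (-0.58) and limma-trend on the deposited values (-0.25), and SOCS1 missed a minimum fold of 2 at 1 h (-1.31, adjusted p = 0.207) and of 1.5 and 2 at 4 h (-0.60, adjusted p = 0.403 and 1). The limma values are small because the deposited values carry an offset (CISH -0.75 at 1 h).

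Of the changes in response, 178 of 192 values without 1 library and 96 of 120 others kept direction and call. With upper-quartile factors CISH from 1 to 4 h (-0.62), BCL6 from 4 to 8 h (-0.66) and from 1 to 8 h (-0.55) passed, SOCS1 from 4 to 8 h did not (0.34), and PIM1 from 1 to 8 h turned to -0.16. With no scaling factors CISH from 1 to 4 h (-0.83) and 1 to 8 h (-0.72) and BCL6 from 4 to 8 h (-0.68) and 1 to 8 h (-0.79) passed, SOCS1 from 4 to 8 h did not (0.32), and BCL6 from 1 to 4 h turned to -0.11 and PIM1 from 1 to 8 h to -0.40. With limma-trend SOCS1 from 1 to 4 h (0.07) and 4 to 8 h (0.09) missed and BCL6 from 4 to 8 h (-0.20) passed. Neither minimum fold was passed by SOCS1 from 1 to 4 h (0.71) and 4 to 8 h (0.45) or PIM1 (0.65 and -0.64), nor that of 2 by SOCS1 from 1 to 8 h (1.16). Leaving out libraries in turn gave CISH -0.69 to -0.44 from 1 to 4 h and -0.09 to 0.40 from 4 to 8 h, SOCS1 0.34 to 0.56 and BCL6 -0.72 to -0.42 from 4 to 8 h, and PIM1 -0.14 to 0.09 from 1 to 8 h (-0.0025, -0.01, -0.02, -0.02 and -0.14 below 0). Near-zero time differences of CISH in DMSO turned, to -0.01 with upper-quartile factors and -0.0034 under the stricter filter, and ranged from -0.03 to 0.04 (1 to 4 h) and -0.02 to 0.09 (4 to 8 h) without 1 library, as did those in SK-3-91 of CISH (-0.05 to 0.43, 4 to 8 h) and BCL6 (-0.3 to 0.003, 1 to 4 h).

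Against minimum folds of 1.5 and 2, 578 and 160 of the 5337 genes called at 1 h passed, 4463 and 2121 of 8632 at 4 h and 5548 and 3428 of 8783 at 8 h. For changes in response it was 3457 and 1344 (1 to 4 h), 1805 and 307 (4 to 8 h) and 5187 and 3049 (1 to 8 h), within DMSO 40 and 6 (1 to 4 h) and 50 and 11 (4 to 8 h), and within SK-3-91 3358 and 1234, and 1755 and 249. Higher and lower calls at 4 and 8 h were 4121 and 4511, and 4060 and 4723, but 2871 and 5752, and 2778 and 6145, with no scaling factors, which moved the median of all genes by -0.30 and -0.43; upper-quartile factors moved it by -0.17 at 8 h. At 1 h the split of 2448 and 2889 became 3249 and 2573 with RLE factors.

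The replicate numbers do not pair the libraries: same-numbered pairs correlated at -0.119 to 0.0219. A replicate block changed none of the calls on the 4 genes (SOCS1 at 8 h -0.16, adjusted p = 0.208) and gave 5339, 8627 and 8773 called genes. The CISH fold at 8 h rests on 4 to 15 reads per treated library.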
